A study of Mus musculus with 12 samples.

Results

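Klf2, Klf4, Klf6, Fos, Fosb, Jun, Junb, Atf3, Egr1 and Ier2 encode Krüppel-like and AP-1 early response factors, and their mRNA levels were described in mouse lung tumors and normal mouse lung. The genes were chosen by name, as a functional class, and Klf6 because it had been noted as lower in tumor. For Klf6 the difference between tumor and normal lung is therefore given as a description with no test. All 10 genes were found among the 30399 genes of the table, and all 10 passed the filter on low values. The series holds 5 samples labelled normal lung and 7 labelled tumor, measured by poly-A RNA sequencing. By its title the study made lung cancer models in mice by nonviral CRISPR/Cas9 mutagenesis, in which a guided nuclease cuts a chosen gene and faulty repair can disable it. The labels used here give the tissue of each sample and nothing on strain, age, the genes targeted, the delivery or the time between removal and preservation of the tissue. Titles of tumors 3 and 4 share the number 159 and those of tumors 5, 6 and 7 the number 201, with no meaning of the number stated, so the tumors may not all be independent and p-values measure only the spread between these samples. Tumors 1 and 7 carry the Spanish word for trachea in their titles, and tumors 3, 4, 5 and 6 that for lung.

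Early response genes are transcribed within minutes of a stimulus such as a growth factor, stretch or stress, from factors already present in the cell, and their mRNAs are short-lived. Fos and Jun proteins pair through leucine zippers to form AP-1, which binds DNA and drives later genes, and Atf3 belongs to the same zipper superfamily. Krüppel-like factors bind GC-rich DNA through zinc fingers at their carboxyl end. In lung and vessels Klf2 and Klf4 are known for maintaining quiescent endothelium under flow, and Klf2 also for the quiescence and trafficking of T cells.

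Values are normalized counts, that is, reads per gene divided by a size factor for each sample, and are not scaled by gene length, so levels are compared between samples and not between genes. Libraries held 11126432 to 24217633 reads, and the least covered value of the 10 genes rested on 72 reads (Fosb in normal lung 3). The tissue labels were checked against markers. Summed over 8 lung epithelial markers, normal lungs had 284415 to 509724 and tumors 481 to 3216 normalized counts, and over 7 neuroendocrine markers normal lungs had 263 to 336 and tumors 28721 to 114267. Tumor 7 stood apart from the other tumors, with the highest summed markers of leukocytes, of fibroblasts and smooth muscle, and of cardiac muscle, and the lowest of neuroendocrine cells (28721, against 43947 to 114267). The mean log2 level of 4 Y-linked genes lay between 9.18 and 9.43 for normal lungs 1, 2, 4 and 5, was 9.14 for tumor 1 and ran from 0 to 1.48 elsewhere, so Y-linked expression nearly coincided with the groups. With that level as a covariate the same 5 of the 9 genes tested below were called lower in limma.

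Tumor was compared with normal lung to ask which of these factors differ between the tumors and lung tissue. Of the 9 genes other than Klf6, 5 were lower in tumor (Klf2, Klf4, Jun, Junb and Ier2), 0 were higher, and 4 did not pass the test (Fos, Fosb, Atf3 and Egr1), at a limma adjusted p under 0.05. Of the 9, 1 was higher at an unadjusted p under 0.05 in limma, Fosb, which edgeR and DESeq2 on the reads of 11 samples also called higher. Over all 23674 genes tested the same rule called 30.1% lower and 31.4% higher, so a call in itself does not set these genes apart. EdgeR called 4 of the 9 lower and 1 higher, against 26.3% and 34.9% of its genes. In 3 of the 9 genes (Klf2, Klf4 and Jun) every tumor lay below every normal lung, which held for 18.4% of all genes, and in 0 did every tumor lie above every normal lung, against 20.1% of all genes. Without tumor 7 every tumor lay below in 4 of the 9, Junb being added, against 23.6% of all genes.

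**Figure D1:**
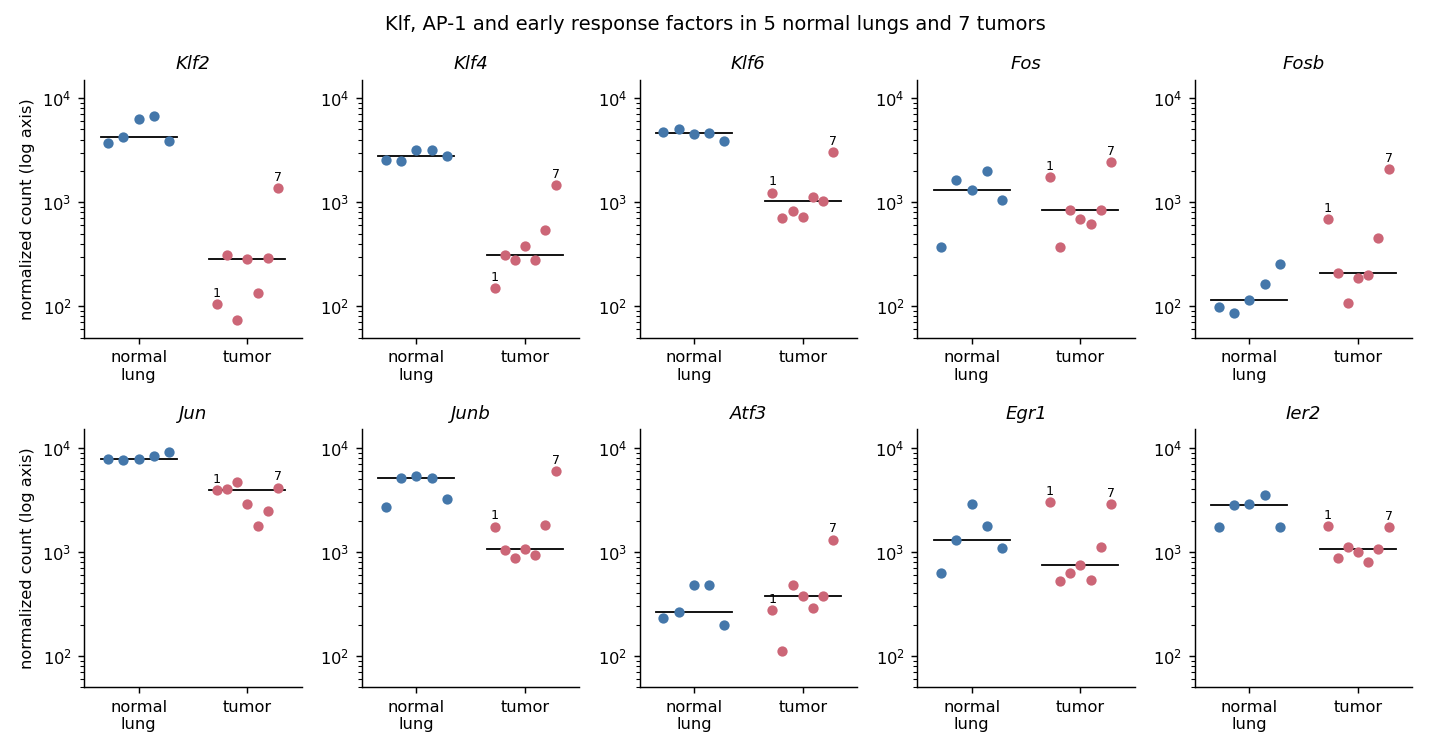
Normalized counts on a log axis of the 10 genes in each of 5 normal lungs (blue) and 7 tumors (red), with a bar at each group's median and tumors 1 and 7 numbered. Klf2, Klf4, Klf6 and Jun lie lower in every tumor than in any normal lung, whereas Fos, Fosb, Atf3, Egr1 and, to a small extent, Ier2 and Junb overlap between the groups.

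Klf2 and Klf4 showed the largest decreases of the genes tested, and Klf6, chosen because it was lower, is described after them. Klf2 (ENSMUSG00000055148) measured 3726, 4226, 6249, 6661 and 3886 normalized counts in the normal lungs (1 to 5, in that order throughout), and in the tumors a lowest value of 73.4, a median of 286 and a highest of 1376. The highest tumor was tumor 7, the next highest had 312, and no tumor reached the normal lungs. The mean fell from 4950 ± 1394 (SD, n = 5) to 368 ± 455 (SD, n = 7), which is 7.44% of normal lung. Tumor 7 weighed on that mean, which was 200 without it (4.05% of normal lung). On the log2(value + 1) scale, which understates changes of low genes and is used for all differences below, Klf2 fell by 4.36 (SE 0.56, limma adjusted p = 1.90e-05). Without tumor 7 the difference was -4.78.

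Klf4 (ENSMUSG00000003032), a factor also expressed in differentiating epithelium, measured 2560, 2478, 3174, 3147 and 2755 normalized counts in the normal lungs. Its tumor values ran from 149 in tumor 1 over a median of 310 to 1453 in tumor 7. All tumors were below all normal lungs, and tumor 7 came nearest to them. The mean fell from 2823 ± 324 (SD, n = 5) to 485 ± 443 (SD, n = 7), and the log2 difference was -2.89 (SE 0.41, limma adjusted p = 4.63e-05).

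Klf6 (ENSMUSG00000000078), a broadly expressed factor induced by injury, measured 4769, 5088, 4538, 4603 and 3900 normalized counts in the normal lungs. In tumors 1 to 7 it had 1238, 702, 828, 727, 1130, 1035 and 3004. Tumors 1 to 6 lay close together and tumor 7 lay between them and normal lung. The tumor mean was 27.0% of normal lung, and the log2 difference of -2.06 (SE 0.30) stayed between -2.39 and -1.71 over the alternatives tried.

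Endothelial markers were also lower in tumor. All 8 were called lower, and their summed normalized counts were 67491 to 77976 in normal lung and 2591 to 7484 in tumors, with none of the 8 at 0 in any tumor. The sum of tumor 1, the highest of the tumors at 7484, was mostly Vwf, at 6522. Over the 7 endothelial markers other than Vwf, a choice made after its values were seen, tumors 1 to 7 had 962, 3321, 845, 2574, 1861, 2366 and 5232 normalized counts, beside 106, 312, 73.4, 286, 133, 292 and 1376 of Klf2. Tumor 7 was highest and tumor 3 lowest in both. In bulk tissue fewer cells of a type and less mRNA per cell cannot be told apart, and the part of endothelial content in the decrease of Klf2 and Klf4 was not tested. Of 4 genes known to depend on Klf2, all 4 were lower in tumor, against 30.1% of all genes. Thbd, the endothelial anticoagulant receptor thrombomodulin, fell from 19532 ± 2030 (SD, n = 5) to 309 ± 353 normalized counts (SD, n = 7), a tumor mean that was 180 without tumor 7. S1pr1, a sphingosine phosphate receptor of endothelium and lymphocytes, fell by 4.52 (SE 0.48, limma adjusted p = 3.04e-06).

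**Figure D2:**
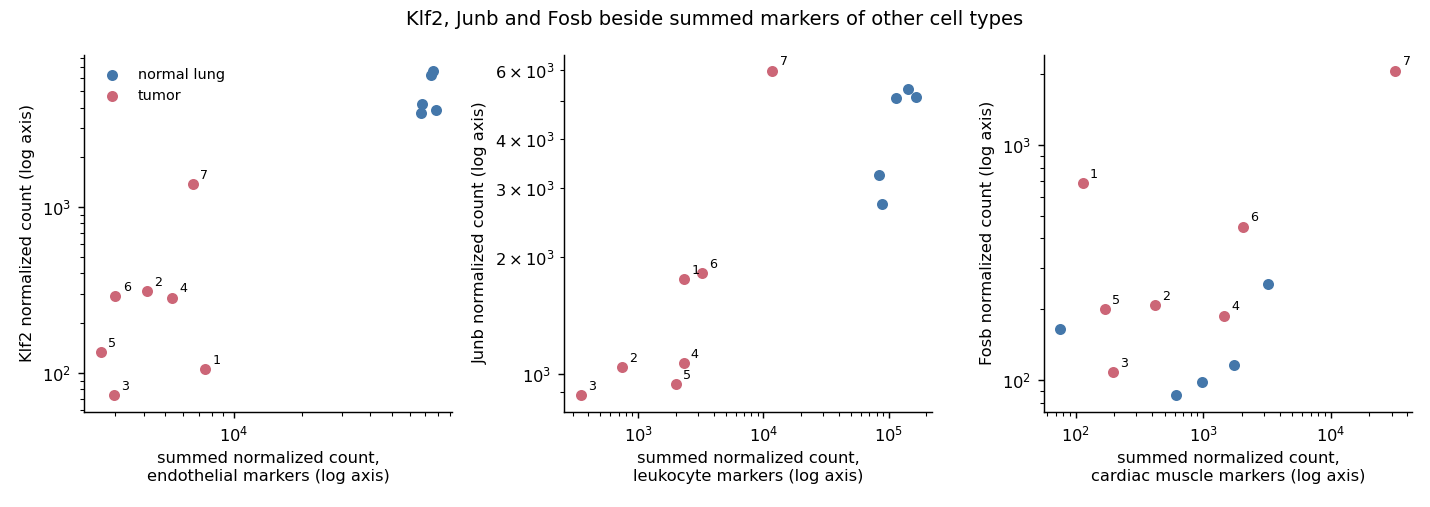
Normalized counts of Klf2, Junb and Fosb (vertical log axes) against the summed normalized counts of 8 endothelial, 7 leukocyte and 4 cardiac muscle markers (horizontal log axes) in 5 normal lungs (blue) and 7 tumors (red, numbered). Tumor 7 has the highest Klf2, Junb and Fosb of the tumors, and the highest leukocyte (11817) and cardiac (32145) sums, while its endothelial sum of 6627 is second to that of tumor 1, which is mostly Vwf (6522 of 7484).

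The stretch before the transcription start was searched in 8 of the 10 genes, those with an entry among RefSeq promoters of build GRCm38.p6. Egr1 and Ier2 had no entry and were not searched. The search was made because Klf2 and Jun, both lower in tumor, are textbook targets of MEF2 factors. Since the MEF2 box, the motif they bind, was chosen for that, its count among these genes is a description. Its share over all promoters is given only to show how common the pattern is, and no excess is read from it. MEF2 proteins are DNA-binding factors that the kinase ERK5 activates. In the 250 bases before the start, a match to the MEF2 box was found in Klf2, Jun and Atf3, that is, in 3 of 8 genes, and in 2.92% of all 32851 promoters of that length. Capitals mark the match in each sequence, given 5′ to 3′ on the strand of the gene with up to 30 bases on each side.
Klf2, chr8:72318914-72318983, plus strand: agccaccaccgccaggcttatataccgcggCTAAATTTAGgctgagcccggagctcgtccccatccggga
Jun, chr4:95052223-95052285, minus strand: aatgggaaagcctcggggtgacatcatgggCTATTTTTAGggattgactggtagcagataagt
Atf3, chr1:191183334-191183385, minus strand: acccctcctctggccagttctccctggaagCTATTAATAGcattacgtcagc
The match began 118 bases before the start in Klf2, 33 in Jun and 22 in Atf3, and the central letters differed between the 3. Klf2 and Jun were called lower in tumor, and Atf3 was not called (log2 difference 0.22, SE 0.47). The part of the box in these levels was not tested. The CArG box bound by serum response factor, the cyclic AMP element TGACGTCA and the AP-1 element TGANTCA, all read on both strands, had no match in these 8 windows and were in 1.47%, 1.55% and 6.75% of all promoters. The GC box GGGCGG, read on both strands, was in 7 of 8 windows and in 32.7% of all promoters. Only exact matches were counted and sites beyond the 250 bases were not searched, so other forms of these elements may be present. TGACATCA in the Jun sequence and TTACGTCA in that of Atf3 each differ from TGACGTCA by a single letter. A match of letters is a description and does not show binding.

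Jun (ENSMUSG00000052684), the central AP-1 subunit, had the smallest spread of the 10 genes in normal lung, where it measured 7782, 7548, 7765, 8278 and 9058 normalized counts. Tumor values ran from 1780 in tumor 5 over a median of 3904 to 4684 in tumor 3, all below normal lung. The mean fell from 8086 ± 606 (SD, n = 5) to 3408 ± 1047 (SD, n = 7), a log2 difference of -1.31 (SE 0.22, limma adjusted p = 1.56e-04). Unlike Klf2, Klf4 and Klf6, Jun was not highest in tumor 7, which had 4148. The annotated span of Jun overlaps that of the antisense gene Junos, and since use of the strand in counting is not stated, their reads may not be told apart.

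Junb (ENSMUSG00000052837), an AP-1 subunit that can oppose Jun, measured 2726, 5102, 5359, 5116 and 3245 normalized counts in the normal lungs. In tumors 1 to 7 it had 1749, 1041, 883, 1068, 942, 1815 and 5982. The groups overlapped through tumor 7 alone, which lay above every normal lung. The log2 difference was -1.46 (SE 0.41, limma adjusted p = 0.00759). The call was lost on recovered reads of 11 samples in edgeR (-0.93, adjusted p = 0.11) and DESeq2 (-1.02, adjusted p = 0.0618), and without tumor 7 the difference in limma was -1.795 (adjusted p = 3.34e-05). Summed leukocyte markers were 83240 to 163714 normalized counts in normal lung, 348 to 3218 in tumors 1 to 6 and 11817 in tumor 7. All 7 leukocyte markers were called lower, with Cd3e at 0 in tumors 1, 2 and 3, and the part of leukocytes in the values of Junb was not tested. Junb also overlaps Prdx2, a gene of the other strand, so its count is uncertain.

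Fos (ENSMUSG00000021250), the partner of Jun in AP-1, did not separate the groups. It measured 374, 1623, 1299, 1999 and 1054 normalized counts in the normal lungs, and the tumors (1 to 7 in order) had 1736, 369, 835, 694, 613, 837 and 2423. Tumors 1 and 7 were as high as the upper normal lungs, and tumor 2 was as low as normal lung 1. The log2 difference of -0.31 (SE 0.48, limma adjusted p = 0.596) did not pass the threshold.

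Fosb (ENSMUSG00000003545), a close relative of Fos, had a positive difference in every fit tried, and its call depended on the fit. It measured 98.0, 86.0, 116.3, 165 and 255 normalized counts in the normal lungs, and the tumors (1 to 7 in order) had 686, 208, 108, 188, 200, 449 and 2064. Tumors 1, 6 and 7 lay above every normal lung, and the other 4 lay within their range. The log2 difference was 1.36 (SE 0.61, limma adjusted p = 0.0685). It passed the threshold in edgeR (2.24, adjusted p = 0.0134), with equal column totals (1.56, adjusted p = 0.0423) and without tumor 3 (1.63, adjusted p = 0.0277), and was 0.64 (adjusted p = 0.168) without the trachea-titled tumors. Cardiac muscle markers, summed over 4 genes, were 32145 normalized counts in tumor 7 against 114 to 2040 in the other tumors and 76.2 to 3209 in normal lung, and their part in the value of tumor 7 was not tested.

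Atf3 (ENSMUSG00000026628), a stress-induced repressor, measured 231, 267, 483, 481 and 197 normalized counts in the normal lungs, and the tumors (1 to 7 in order) had 277, 111, 478, 374, 290, 375 and 1314. Tumors 1 and 3 to 6 lay within the range of normal lung, tumor 2 below it and tumor 7 above it. The log2 difference of 0.22 (SE 0.47, limma adjusted p = 0.703) did not pass the threshold and was -0.09 without tumor 7.

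Egr1 (ENSMUSG00000038418), a zinc finger factor induced through serum response factor, measured 632, 1307, 2897, 1763 and 1082 normalized counts in the normal lungs. In tumors 1 to 7 it had 3023, 525, 623, 757, 533, 1111 and 2898. Tumors 1 and 7 were level with the highest normal lung, and the other 5 were in or just below the lower part of the normal range. The log2 difference of -0.39 (SE 0.51, limma adjusted p = 0.528) did not pass the threshold. Without tumors 1 and 7, the trachea-titled pair, it was -0.99 and passed (limma adjusted p = 0.0279).

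Ier2 (ENSMUSG00000053560), a short early response protein of the nucleus, measured 1718, 2849, 2854, 3501 and 1746 normalized counts in the normal lungs. Tumors ran from 792 over a median of 1077 to 1758. Among the tumors, 1 and 7, at 1758 and 1732, exceeded the lowest normal lung. The log2 difference was -1.09 (SE 0.25, limma adjusted p = 0.00180), and Ier2 had the smallest SD among the tumors of the 10 genes, 0.45 log2 units.

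**Figure D3:**
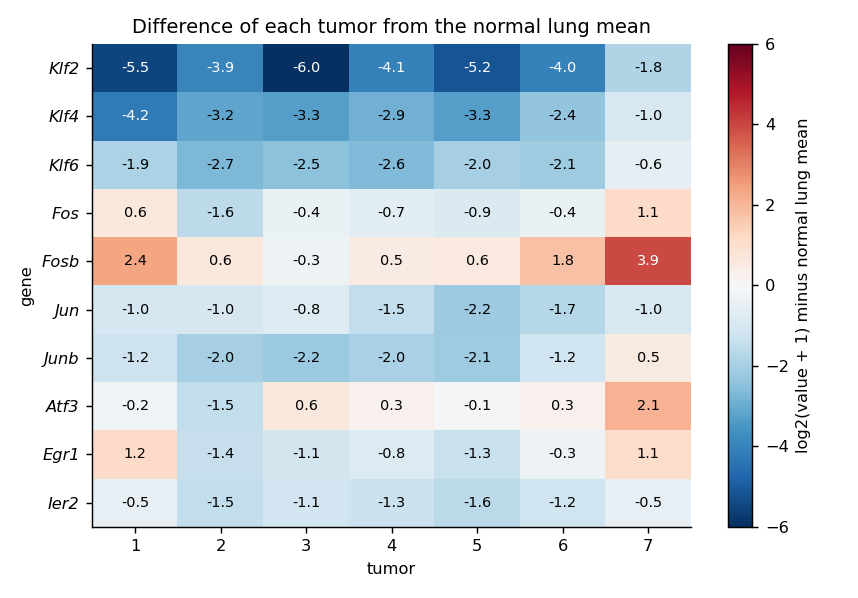
Difference of each of the 7 tumors from the normal lung mean on the log2(value + 1) scale for the 10 genes, blue for lower and red for higher. Klf2 runs from -6.01 in tumor 3 to -1.80 in tumor 7 and is lower in every tumor, while Fosb reaches 3.95 in tumor 7 and Egr1 is higher in tumors 1 and 7 only.

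The spread of the 10 genes was read within each group. Their SD on the log2 scale had a median of 0.996 among the 7 tumors and 0.457 among the 5 normal lungs, against 0.628 and 0.352 over all genes tested. The SD was larger in tumors for 8 of the 10 genes, Fos and Ier2 being the exceptions, which is near the 77.3% of all genes for which it was. Fosb had the largest SD among tumors, 1.44, above that of 88.1% of tested genes, followed by Klf2 with 1.39 and Egr1 with 1.10. Without tumor 7 the median SD of the 10 genes among tumors was 0.670. The value over all genes was not computed without tumor 7, so 0.670 has no like value beside it.

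Single samples stood at the ends for many of the genes. Tumor 7 was the highest tumor for 7 of 10 genes (Klf2, Klf4, Klf6, Fos, Fosb, Junb and Atf3), and tumor 2 the lowest for 4 (Klf6, Fos, Atf3 and Egr1). Among normal lungs, normal lung 1 was lowest for 5 genes (Klf2, Fos, Junb, Egr1 and Ier2), and normal lung 4 lay above the normal mean for all 10. Tumors 5, 6 and 7 share the title number 201 and still ranged from 200 to 2064 normalized counts of Fosb and from 533 to 2898 of Egr1. Tumors 3 and 4, which share the number 159, differed less in Fos, at 835 and 694, than in Klf2, at 73.4 and 286.

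The site word in the titles gave a further description. Both trachea-titled tumors lay above all 4 lung-titled tumors in 5 of the 10 genes (Klf6, Fos, Fosb, Egr1 and Ier2). This held for 6.80% of all genes, and in the other 5 genes the sets overlapped. The 5 genes are not separate observations, since they varied together. After the mean of each group was subtracted, Pearson's r over the 12 samples was 0.522 to 0.891 between pairs of them. For Egr1 the pair had 2898 and 3023 normalized counts against 533 to 1111, and for Fos 1736 and 2423 against 613 to 837. Groups of 2 and 4 are too few for a permutation test to pass 0.05, so no test is given, and tumor 7 also carried the marker levels given above. Tumor 1 had summed leukocyte markers of 2334, within the range of tumors 2 to 6, and summed cardiac markers of 114, the lowest of the tumors.

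The other genes of the same families and pathway were read in 5 lists, beside the 30.1% of all genes called lower and the 31.4% called higher. Of 86 tested, 36 were lower and 16 higher in limma. With equal column totals 28 were lower and 24 higher, against 25.8% and 36.4% of all genes. Among 12 other Krüppel-like genes tested, 5 were lower and 2 higher, with a median log2 difference of -0.45 against 0.04 over all genes. Klf3, a repressor of the family, fell by 2.19 (SE 0.28, limma adjusted p = 1.80e-05), Klf15, a metabolic regulator, fell by 1.96, and the epithelial factor Klf5 fell by 1.92. Klf12 rose by 1.36 (SE 0.24, limma adjusted p = 3.13e-04). Klf16 was called at the threshold (0.43, limma adjusted p = 0.0499) and the call was lost when any sample other than tumors 4, 6 and 7 was left out. With equal column totals 4 of these genes were lower and 3 higher. The span of Klf3 overlaps another listed gene.

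Of 10 other AP-1 and related zipper genes, 2 were lower and 2 higher, with a median difference of -0.39. Batf, which pairs with Jun proteins in lymphocytes, fell by 3.74 (SE 0.68, limma adjusted p = 3.40e-04), from 292 ± 73.6 (SD, n = 5) to 41.3 ± 63.6 normalized counts (SD, n = 7). The tumor median was 10.8, and without tumor 7, at 181, the tumor mean was 18.0. Batf2, whose span overlaps Arl2, fell by 1.47, Batf3 of dendritic cells rose by 1.48 and the stress-responsive factor Atf2 by 0.48. Without tumor 7, 4 of these genes were lower, and with equal column totals 4 were higher, while with Y-linked expression as a covariate neither Batf3 (1.39) nor Atf2 (0.44) passed in limma.

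Of 31 other early response genes, 15 were lower and 5 higher, with a median difference of -0.91. Ier3, a survival-related early gene, fell by 4.53 (SE 0.30, limma adjusted p = 3.61e-08), from 4015 ± 1551 (SD, n = 5) to 180 ± 105 normalized counts (SD, n = 7). Zfp36l1, which speeds the decay of short-lived mRNAs, fell by 4.26, and Ccn1, a secreted matrix protein, fell by 3.26. In both, tumor 7 was the highest tumor, at 2914 and 2438 normalized counts, and only in Ccn1 did it enter the normal range. Against this direction, Arc, an early gene of neurons, measured 28.4, 19.4, 66.2, 48.0 and 35.6 normalized counts in the normal lungs and 342 to 1478 in tumors. It rose by 4.56 (SE 0.37, limma adjusted p = 2.19e-07) with no overlap, and its lowest tumor was tumor 2. Egr4, a relative of Egr1, was listed at 0 in 4 normal lungs and had 1 read in normal lung 2, against 17.8 to 190 normalized counts in tumors (limma adjusted p = 1.33e-06). Per1, a clock gene that stimuli also induce, rose by 2.56 (SE 0.41, limma adjusted p = 1.17e-04), and normal lung 5 had 3059 normalized counts of it against 437 to 775 in the other normal lungs.

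Among 20 upstream factors and kinases, 7 were lower and 5 higher, near the shares over all genes of 30.1% and 31.4%, and with equal column totals 4 were lower and 8 higher. Mef2c, a factor of the family whose box was found in Klf2, Jun and Atf3, fell by 2.98 (SE 0.48, limma adjusted p = 1.21e-04), and with 671 normalized counts tumor 7 was again the highest tumor. Mef2a (0.18) and Mef2d (-0.09), of the same family and list, were not called. The part of cell content in the decrease of Mef2c was not tested. Mapk7, which encodes ERK5, rose by 1.08 (SE 0.15, limma adjusted p = 3.72e-05), and Mapk8, which encodes the Jun kinase JNK1, rose by 1.69 (SE 0.19, limma adjusted p = 5.16e-06). Mapk3, encoding ERK1, fell by 1.07 and Elk3, a partner of serum response factor, fell by 1.68, while its relative Elk1 rose by 0.57 with a call lost when normal lung 1, 3 or 4 or tumor 1, 3 or 5 was left out. The spans of Mapk7, Elk1 and Elk3 each overlap another listed gene.

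Of 13 feedback inhibitors, which the same signals induce and which shut them off, 7 were lower and 2 higher, with a median difference of -1.07. Spry1, a brake on growth factor receptors, fell by 3.30 (SE 0.25, limma adjusted p = 1.02e-07), and Spry4 fell by 2.06. Dusp6, an ERK phosphatase, fell by 1.74 (SE 0.44, limma adjusted p = 0.00394) and did not pass with Y-linked expression as a covariate (-1.36). Dusp4, another phosphatase of the family, rose by 1.34 and Dusp10, which acts on stress kinases, by 1.28. With equal column totals 6 were lower and 3 higher. The span of Spry1 overlaps another listed gene.

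**Figure D4:**
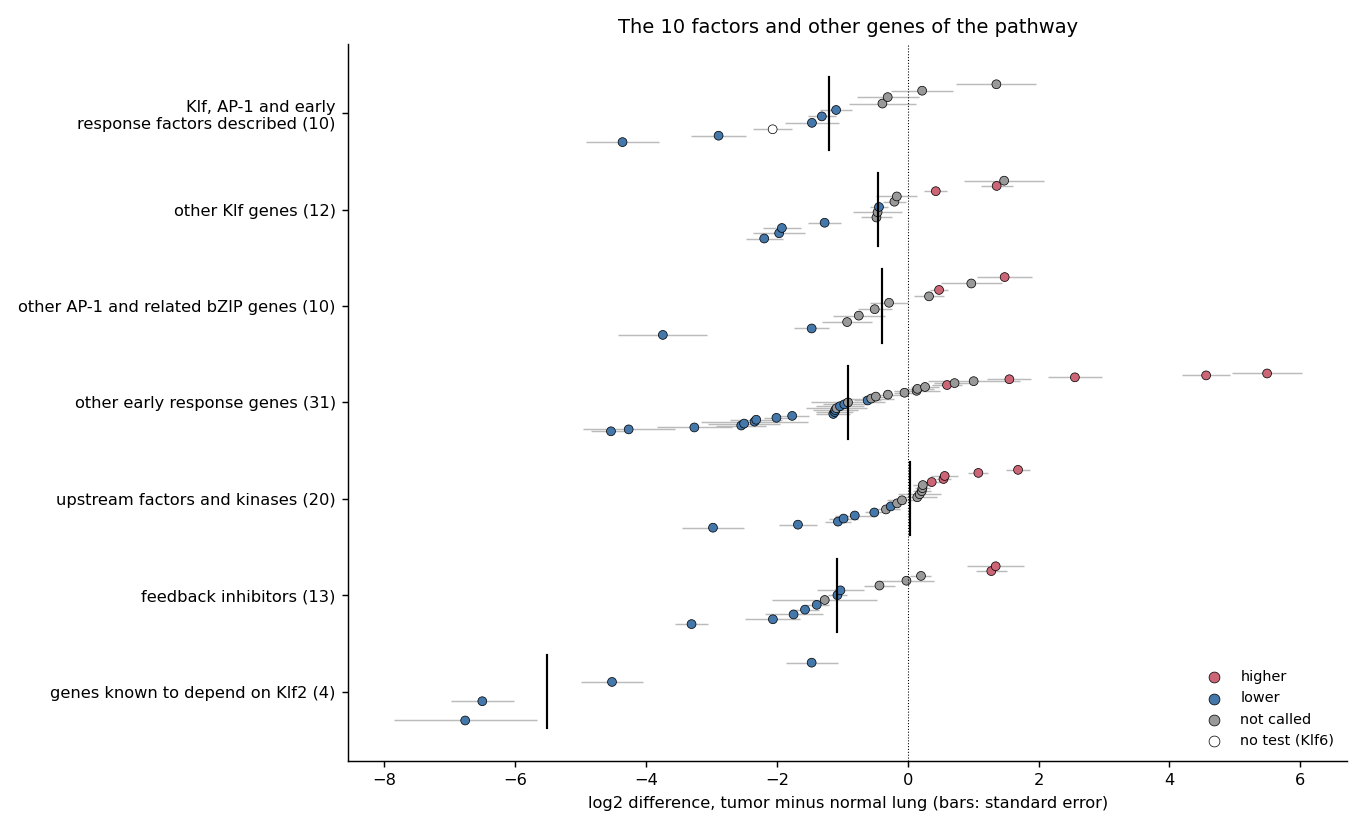
Log2 difference between tumor and normal lung, with its standard error, for the 10 genes and for 6 lists of related genes, with the number plotted in brackets. Points are red where called higher, blue where called lower and grey where not called, Klf6 is open because it was not tested, and black bars mark medians, which run from -5.51 for the 4 genes known to depend on Klf2 to 0.03 for upstream factors and kinases.

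Likeness of pattern was measured within groups, by Pearson's r over the 12 samples after the mean of each group was subtracted, among 17548 genes. It is a description without a test, since samples share tumors' title numbers and tumor 7 weighs on it. Nearest to Klf2 were Pofut2 (r = 0.978), Srgn (0.976), Clec4a2 (0.975), B3gnt3 (0.975) and Rhoj (0.974). Nearest to Klf4 were Uvrag (0.984), Slfn5os (0.975), Rrad (0.973), Plekho1 (0.973) and Pde4b (0.969), and nearest to Klf6 were Fcmr (0.973), Cxcr5 (0.968), Zfp36l1-ps (0.967), Slc25a24 (0.962) and E030013I19Rik (0.956). Fcmr and Cxcr5 are genes of B cells and Clec4a2 is a gene of myeloid cells, and the others were not assigned to a cell type. Tumor values were 0 to 35.9 normalized counts for Fcmr and 2.38 to 95.4 for Cxcr5, so their r rests partly on low values. For the mean of Fos, Fosb, Jun, Junb, Egr1, Atf3 and Ier2 the nearest genes were AC114539.1 (0.950), Twf2 (0.936), Glmp (0.929), Rassf3 (0.917) and Fuca2 (0.915). Without tumor 7, r for the first gene of each set was 0.948 for Pofut2, 0.961 for Uvrag, 0.939 for Fcmr and 0.91 for AC114539.1. The group means subtracted there, and the choice of the genes, still included tumor 7, so these values are not free of it.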

How the data were processed

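Poly-A RNA was sequenced from 5 normal lungs and 7 tumors. The deposited table holds a signal, made by the authors as reads per gene over 1 size factor per sample, and the submitters' processing notes name featureCounts, DESeq2 and build GRCm39. The aligner, versions, annotation and strand setting are not given in the sources used here. This unit rests on the numbers themselves, 100% of which were whole multiples of the smallest of their column to within 0.01 read. Recovered totals were 11126432 to 24217633 reads. Reads are not independent molecules, so depth covers counting error only. Symbols came from GENCODE M21 for 29982 of 30399 identifiers.

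A limma 3.58.1 model (R 4.3.3, trend) of log2(value + 1) in all 12 samples covered the genes with a mean of at least 1, with Benjamini-Hochberg adjustment over all 23674 genes and a threshold of 0.05. On simulated counts with the spread of the normal lungs, the fit recovered 69 of 100 changes of 1 log2 unit. It recovered 90 of 100 changes of 2 log2 units, and 11 of its 170 calls (6.47%) were false. The spread among tumors, larger for 77.3% of genes, was not simulated. Alternatives were equal totals, quantile normalization, pseudocounts of 0.1 and 10, other filters, tumors of a title number averaged or correlated, a Y-linked covariate (Ddx3y, Eif2s3y, Kdm5d and Uty), leaving out samples, and edgeR 4.0.16 and DESeq2 1.42.0 on recovered reads of 11 samples, since a separate check of low values accepted the read steps of 11 columns but not of tumor 3. None of 31 same-group pairs looked like a library deposited again, the least chi-square over its degrees of freedom being 18.4. The members and lists were chosen with earlier results of these data known. Genes named from other lists are the up to 3 largest called differences in each direction with a mean of at least 16. Mef2a and Mef2d, which were not called, are named beside Mef2c as members of its family. Values of 2 single genes of these lists and of the marker lists are not reported here, though list counts and sums include them. Markers and listed genes absent from the table (Itgam, Actc1 and Csrnp1) were not analysed here. Promoters came from RefSeq tables of build GRCm38.p6 and were matched by symbol.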

Additional observations from a re-analysis of the deposited data

Results flagged for a closer look

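In each group of samples and for each of the 10 genes, the highest or lowest value was set against its nearest neighbour. Dixon's ratio on the log2 scale was used, and the end with the larger ratio was taken. This gave 20 comparisons, of which chance would flag 1 at the 95% limit. Tumor 7 stood apart in 2. Its Klf6 value of 3004 normalized counts lay above the next tumor, at 1238, with a ratio of 0.61. Its Junb value of 5982 lay above the next, at 1815, with a ratio of 0.624.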

How the results depend on the processing

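Over the alternatives tried, Klf2, Klf4, Jun and Ier2 kept their direction and their call, with log2 differences of -4.97 to -3.46, -3.49 to -2.34, -1.44 to -1.06 and -1.34 to -0.89. Klf6 stayed lower. The number lower among the 9 tested stayed at 5 when single samples were left out, and was 4 in edgeR and DESeq2, which lost Junb, and 6 without the trachea-titled tumors, with Egr1. The number higher was 1 in place of 0, through Fosb, with equal column totals, quantile normalization, edgeR, DESeq2, limma on the 11 samples and genes of the edgeR fit (chosen after seeing the data), tumors of a title number averaged, and without tumor 3, so it ran from 0 to 1 when single samples were left out. Atf3, which was not called, turned to -0.105 with tumors of a title number averaged, -0.0764 without the trachea-titled tumors, -0.176 with the Y-linked covariate and -0.0901 without tumor 7 (to 0.503 without tumor 2), and Egr1 to 0.0538 in edgeR. The cause was not tested. Equal column totals moved the median over all genes by 0.194 and edgeR by 0.1. No paired analysis was possible because the titles of normal lungs and tumors share no number.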
